A study of Mus musculus with 50 samples.

Results

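The 8 genes described here encode enzymes that add or copy methyl groups on cytosine or start their removal, and cofactors of these, in mouse embryonic stem (ES) cells: Dnmt3a, Dnmt3b, Dnmt3l, Dnmt1, Uhrf1, Tet1, Tet2 and Tet3. They were chosen by name, and all 8 had a row in both deposited tables, among 24412 rows in the first table and 24413 in the second. RNA sequencing of 50 libraries measured them in 25 groups of 2 libraries each, as TPM, a transcript level scaled to transcript length and to the total of the library. All cells were ES cells of the strain TT2 whose genes for histone H3 lysine 9 (H3K9) methyltransferases had been inactivated singly or together: Setdb1, the pair Suv39h1 and Suv39h2, and G9a (gene Ehmt2).

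The first table held 9 groups. Dux-KO:G9a;Suv39h1/2;Setdb1-QKO (here Dux-KO QKO) lacked G9a, Suv39h1/2, Setdb1 and the transcription factor gene Dux. G9a;Suv39h1/2;Setdb1-QKO (here QKO) lacked the same enzymes but had Dux, and its titles carry another line name. The others were G9a;Suv39h1/2-TKO (G9a-Suv39 TKO), G9a;Setdb1-DKO (G9a-Setdb1 DKO), Suv39h1/2;Setdb1-TKO (Suv39-Setdb1 TKO), G9a-KO, Suv39h1/2-DKO (Suv39 DKO), Setdb1-KO and control. The second table held the last 8 of these genotypes, QKO to control, in lines with a doxycycline-inducible Dux transgene (Tet-on-Dux), each with and without doxycycline. The genotype field lists Dux-KO for every group of that table, control included, while the sample titles do not. The doxycycline label was 0.2 in control and Setdb1-KO cells and 1 in the other 6 lines, with no unit given, so responses to doxycycline were compared between lines of 1 label only. Each genotype with Setdb1 and its counterpart without Setdb1 carry the name of a single cell line, so each background was represented by 1 line. Titles of groups without Setdb1 carry OHT and titles of groups with Setdb1 carry NT, terms that the labels do not explain, so anything they stand for cannot be told apart from loss of Setdb1. The labels do not say that the 2 libraries of a group came from separate cultures, and the p-values below measure only the spread between such libraries.

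As annotated for mm10, the de novo genes are Dnmt3a at chr12:3806007-3914443 (plus strand), Dnmt3b at chr2:153649450-153687730 (plus strand) and Dnmt3l at chr10:78041947-78063622 (plus strand). The maintenance genes are Dnmt1 at chr9:20907209-20959888 (minus strand) and Uhrf1 at chr17:56303321-56323486 (plus strand). The dioxygenase genes are Tet1 at chr10:62804570-62908996 (minus strand), Tet2 at chr3:133463679-133545139 (minus strand) and Tet3 at chr6:83362373-83459084 (minus strand). TPM values sum over the whole gene and name no exon or isoform.

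Cytosine methylation in mammals is laid down by the DNMT3A and DNMT3B methyltransferases, helped in mouse germ cells and ES cells by DNMT3L, a family member without catalytic activity of its own. DNMT1 copies the pattern to the new strand after replication, and UHRF1 brings it to hemimethylated sites. The TET dioxygenases oxidise 5-methylcytosine and so start its removal. ES cells express both arms of the pathway, and H3K9 methylation and DNA methylation silence overlapping sets of retroelements and germline genes.

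The de novo genes Dnmt3l, Dnmt3b and Dnmt3a, the members with the most calls over all comparisons, are shown first by their promoters. The number of calls only set this choice and was not compared with that of all genes. RefSeq windows (GRCm38.p6, the build called mm10), of 300 bases, most of them upstream of a transcript start, were found for all 8 genes, 15 windows in all. The windows below run 5′ to 3′ on the strand of the gene, all on the plus strand, and capitals mark CpG dinucleotides, the sites these enzymes act on. Dnmt3b has 1 window, at chr2:153649199-153649498. Dnmt3l has 3, at chr10:78042037-78042336, chr10:78049592-78049891 and chr10:78055085-78055384. Of the 3 windows of Dnmt3a the most downstream, at chr12:3891494-3891793, is shown.
Dnmt3b: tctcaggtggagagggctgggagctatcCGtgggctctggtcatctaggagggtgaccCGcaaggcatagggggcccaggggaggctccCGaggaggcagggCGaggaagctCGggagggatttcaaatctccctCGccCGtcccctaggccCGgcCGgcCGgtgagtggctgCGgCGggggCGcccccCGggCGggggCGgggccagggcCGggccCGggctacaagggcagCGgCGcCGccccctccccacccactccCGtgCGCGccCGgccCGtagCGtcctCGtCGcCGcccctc
Dnmt3l, window 1: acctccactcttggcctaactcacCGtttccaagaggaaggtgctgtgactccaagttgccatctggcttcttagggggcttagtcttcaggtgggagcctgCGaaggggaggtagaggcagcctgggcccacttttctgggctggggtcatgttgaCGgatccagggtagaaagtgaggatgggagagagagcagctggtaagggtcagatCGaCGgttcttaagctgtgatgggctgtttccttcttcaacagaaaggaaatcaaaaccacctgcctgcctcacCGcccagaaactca
Dnmt3l, window 2: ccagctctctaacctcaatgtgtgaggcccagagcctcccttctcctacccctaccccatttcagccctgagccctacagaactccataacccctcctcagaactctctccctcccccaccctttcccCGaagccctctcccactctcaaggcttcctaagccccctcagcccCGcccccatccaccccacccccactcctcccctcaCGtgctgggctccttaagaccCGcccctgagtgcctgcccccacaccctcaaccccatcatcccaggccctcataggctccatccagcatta
Dnmt3l, window 3: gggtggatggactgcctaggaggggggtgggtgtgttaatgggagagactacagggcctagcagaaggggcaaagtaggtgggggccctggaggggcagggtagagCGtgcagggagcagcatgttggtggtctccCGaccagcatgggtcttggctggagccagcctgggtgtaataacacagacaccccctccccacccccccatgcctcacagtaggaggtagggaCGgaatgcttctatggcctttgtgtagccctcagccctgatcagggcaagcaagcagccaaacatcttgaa
Dnmt3a, window 3: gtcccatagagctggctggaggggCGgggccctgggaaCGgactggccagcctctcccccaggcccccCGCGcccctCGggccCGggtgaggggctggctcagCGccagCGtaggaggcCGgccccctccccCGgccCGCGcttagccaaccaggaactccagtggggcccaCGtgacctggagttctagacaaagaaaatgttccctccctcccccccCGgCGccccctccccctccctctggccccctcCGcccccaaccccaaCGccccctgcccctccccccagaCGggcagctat

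The promoters differed in CpG content. The Dnmt3b window holds 30 CpG in 300 bases, more than 88.3% of the 32851 RefSeq windows of that length in mouse. The Dnmt3l windows hold 6, 4 and 3 CpG, against a median of 7 over all windows. The Dnmt3a windows hold 46, 47 and 18 CpG, the last being the window shown. Tet2 has the most, 57, above 99.8% of windows. The motif CACGTG, an E-box read alike on both strands, occurs in 1 of the 3 Dnmt3l windows (window 2). It also occurs in 1 of the 3 Dnmt3a windows, the one shown, in no window of the other members, and in 7.15% of all windows. These are matches of letters in fixed windows and describe no binding.

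Markers of ES cells were present in the libraries: Pou5f1, the core pluripotency factor, stood at 2193 and 1996 TPM in QKO libraries and 2274 and 2285 TPM in control libraries of the first table. Fibroblast markers of a feeder layer summed to 8.43 to 20.3 TPM in the first table and 8.74 to 17.7 TPM in the second, with Col1a2, Col3a1, Dcn and Postn under 1 TPM in every library. Ehmt2 had 15.6 and 14.6 TPM in G9a-KO and 83.6 and 91.1 TPM in control libraries, Setdb1 19.8 and 26 TPM in Setdb1-KO and 48.8 and 53.2 TPM in control, Suv39h1 22.9 and 22.4 TPM in Suv39 DKO and 34 and 31.7 TPM in control. Suv39h2 had 14 and 14.8 TPM in Suv39 DKO and 21 and 20.7 TPM in control libraries, and Dux was listed at 0 in both Dux-KO QKO libraries against 25.7 and 21.8 TPM in QKO. Which part of each gene was deleted is not stated in the labels, and reads outside it check nothing. Of the 32 libraries in the second table, a set of 6 stood apart: their Snhg host RNAs, non-coding transcripts of small nucleolar RNA genes, averaged above 4 on the log2(TPM + 1) scale as in all 18 libraries of the first table, while the other 26 lay below 4. These were control without doxycycline replicate 1, replicate 2 of Setdb1-KO and of G9a-Setdb1 DKO with and without doxycycline, and G9a-KO with doxycycline replicate 2. Read depth is not recoverable from TPM and is unknown. How reads shared with Dnmt3c, a mouse duplicate of Dnmt3b that was not analysed here, were assigned, and whether strand was used, is not given by any source used here, so the level of Dnmt3b is uncertain to that extent; Dnmt3aos, the antisense neighbour of Dnmt3a, had at most 0.0755 TPM in the first table and 0 in the second.

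All 8 genes had at least 1 TPM in every library, except Tet3 in 1 library of the second table, QKO with doxycycline replicate 1 (0.777 TPM). Within control cells of the first table the order of mean levels per length was Uhrf1, Dnmt1, Tet1, Dnmt3b, Dnmt3a, Dnmt3l, Tet2 and Tet3, and 2 neighbouring pairs overlapped between libraries, Dnmt3b with Dnmt3a and Dnmt3a with Dnmt3l. Uhrf1 was highest in 6 of the 9 groups of the first table and Dnmt3l in the other 3. Tet3, at 1.45 to 5.02 TPM, was lowest in all 9. Across the 18 libraries Dnmt3l spanned the widest range, 66.3 to 296 TPM or 4.46-fold, while Dnmt1 spanned 1.78-fold and Uhrf1 1.77-fold.

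**Figure D1:**
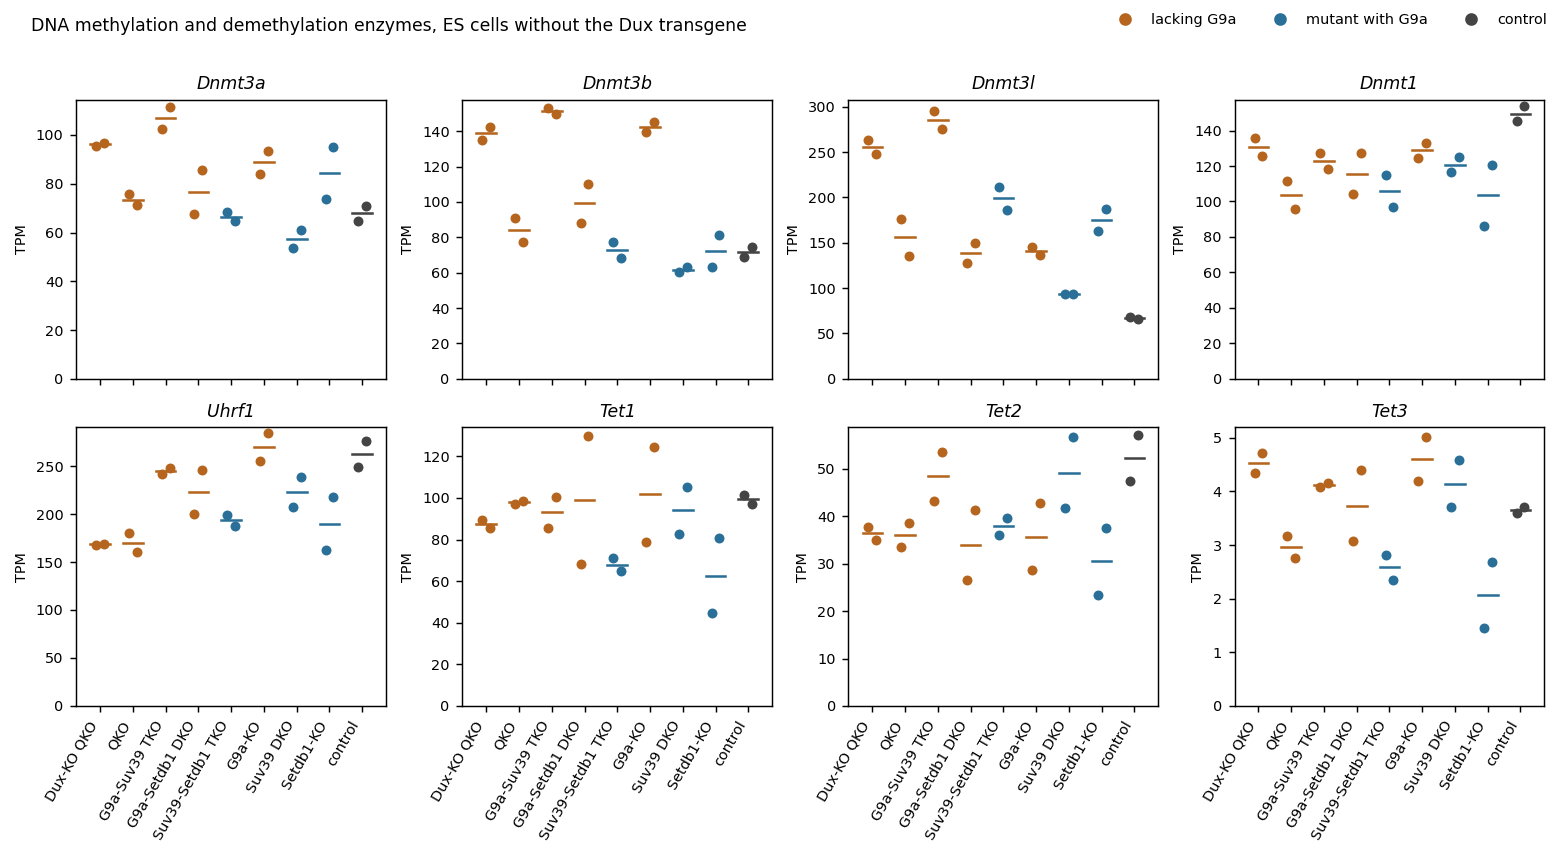
Levels of the 8 genes in the first table, in TPM on a linear axis that starts at 0, with 9 genotype groups along the horizontal axis. Points are libraries, bars are means of 2, brown marks groups lacking G9a, blue other mutants and grey control; Dnmt3l was above both control libraries (68.6 and 66.3 TPM) in every mutant library, and Dnmt3b was highest in G9a-Suv39 TKO, G9a-KO and Dux-KO QKO.

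Loss of H3K9 methyltransferases was compared with control cells in 7 genotypes, which share the same 2 control libraries. All but Setdb1-KO come from another cell line than control, so line and genotype cannot be told apart in them. Dnmt3l, the cofactor, was higher in 6 of the 7 genotypes, Dnmt3b in 3 and Dnmt3a in 2. Dnmt1 was lower in 4 genotypes, Uhrf1 in 3, Tet2 in 2 and Tet3 in 1. A gene passed at a Benjamini-Hochberg adjusted p below 0.05 in limma, adjusted over 13862 genes. By genotype, 3 of 8 members passed in QKO, where 53.3% of all genes passed, 3 in G9a-Suv39 TKO (27.1%), 4 in G9a-Setdb1 DKO (48%), 3 in Suv39-Setdb1 TKO (31.5%), 3 in G9a-KO (34.9%) and 5 in Setdb1-KO (34.1%). None passed in Suv39 DKO, where 2.18% of all genes passed and 1 member, Dnmt3l, had an unadjusted p under 0.05. With so large a share of all genes called, the number of members called is no result about the group, and the genes are described one by one.

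Dnmt3l had 176 and 135 TPM in QKO libraries, 296 and 276 TPM in G9a-Suv39 TKO, 128 and 150.1 TPM in G9a-Setdb1 DKO and 212 and 186 TPM in Suv39-Setdb1 TKO libraries. It had 145 and 137 TPM in G9a-KO, 93.4 and 93.9 TPM in Suv39 DKO, 163 and 188 TPM in Setdb1-KO and 68.6 and 66.3 TPM in control libraries. No mutant library overlapped the controls. The largest log2 difference from control, on the log2(TPM + 1) scale used throughout, was 2.07 ± 0.12 (SE; adjusted p = 1.74e-08) in G9a-Suv39 TKO. It was 1.54 ± 0.12 (SE; adjusted p = 3.08e-07) in Suv39-Setdb1 TKO, 1.36 ± 0.12 (SE; adjusted p = 1.29e-06) in Setdb1-KO and 1.18 ± 0.12 (SE; adjusted p = 1.91e-06) in QKO. G9a-KO and G9a-Setdb1 DKO stood close together, at 1.05 ± 0.12 (SE; adjusted p = 1.24e-05) and 1.03 ± 0.12 (SE; adjusted p = 8.51e-06). Each of these 6 differences passed with any 1 library of the groups compared left out. Suv39 DKO was at 0.47 ± 0.12 (SE; adjusted p = 0.0728) and did not pass, though it did after median-ratio scaling (0.51, adjusted p = 0.00689).

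Dnmt3b, the main de novo methyltransferase of early mouse embryos, had 90.8 and 77.5 TPM in QKO, 153 and 149.8 TPM in G9a-Suv39 TKO, 88.2 and 110.2 TPM in G9a-Setdb1 DKO and 139 and 145 TPM in G9a-KO libraries. With G9a present it had 77.3 and 68.3 TPM in Suv39-Setdb1 TKO, 60.1 and 63.3 TPM in Suv39 DKO, 63.3 and 81.5 TPM in Setdb1-KO and 68.8 and 74.3 TPM in control libraries. With Dux-KO QKO (135 and 142 TPM) left aside, the 8 libraries without G9a had a median of 125 TPM and a range of 77.5 to 153 TPM. The 8 with G9a had a median of 68.6 TPM and a range of 60.1 to 81.5 TPM. Both sets overlapped only through QKO replicate 2. The level was higher by 1.07 ± 0.13 (SE; adjusted p = 2.46e-05) in G9a-Suv39 TKO, 0.98 ± 0.13 (SE; adjusted p = 4.02e-05) in G9a-KO and 0.46 ± 0.13 (SE; adjusted p = 0.0103) in G9a-Setdb1 DKO. The call in G9a-Setdb1 DKO was lost without control replicate 1 or without G9a-Setdb1 DKO replicate 2, where the difference ranged from 0.30 to 0.62 over the libraries left out and the adjusted p reached 0.105. QKO, at 0.23 ± 0.13 (SE; adjusted p = 0.162), did not pass. With median-ratio scaling it did, at 0.36 (adjusted p = 0.00152), and Dnmt3a in QKO passed as well, at 0.24 (adjusted p = 0.0229).

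Dnmt3a, the second de novo enzyme, varied less in these cells. It had 75.6 and 71.2 TPM in QKO, 103 and 111 TPM in G9a-Suv39 TKO, 67.4 and 85.8 TPM in G9a-Setdb1 DKO and 68.3 and 64.9 TPM in Suv39-Setdb1 TKO libraries. The other groups had 84.1 and 93.6 TPM in G9a-KO, 53.7 and 61.1 TPM in Suv39 DKO, 73.6 and 95.2 TPM in Setdb1-KO and 64.7 and 71 TPM in control libraries. G9a-Suv39 TKO was highest and clear of control, by 0.65 ± 0.13 (SE; adjusted p = 0.00212). G9a-KO passed as well, at 0.38 ± 0.13 (SE; adjusted p = 0.0377), but lost the call without any 1 of the 4 libraries (adjusted p up to 0.223). Setdb1-KO was at 0.30 ± 0.13 (SE; adjusted p = 0.0961); all genes had a median of -0.12 in that comparison, and with median-ratio scaling the difference was 0.48 (adjusted p = 0.00061).

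Markers of primitive endoderm, the extra-embryonic lineage next to the epiblast, were higher in several of these groups. Of 21 tested markers, 13 were higher and 1 lower in QKO (25.3% of all genes higher), 21 were higher in G9a-Suv39 TKO (14.4%), 19 in G9a-Setdb1 DKO (23.5%) and 21 in G9a-KO (16.9%). In the groups with G9a, 15 were higher in Suv39-Setdb1 TKO (13.8%), 7 in Suv39 DKO (0.981%), and 9 were higher and 2 lower in Setdb1-KO (12.5%). The 23 listed markers summed to 1249 and 948 TPM in QKO, 3175 and 2398 TPM in G9a-Suv39 TKO, 1687 and 2023 TPM in G9a-Setdb1 DKO, 3303 and 2811 TPM in G9a-KO and 807 and 793 TPM in control libraries. In the mutants with G9a they summed to 1295 and 1195 TPM in Suv39-Setdb1 TKO, 1176 and 1109 TPM in Suv39 DKO and 775 and 939 TPM in Setdb1-KO; the sums of Suv39-Setdb1 TKO and Suv39 DKO overlapped those of QKO. Afp and Ttr stayed under 1 TPM in every library, and no marker was at 0 throughout. Their part in the Dnmt3b and Dnmt3l differences was not tested. In bulk RNA, a larger share of cells of a type and more RNA per cell cannot be told apart.

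Loss of Setdb1 was then compared in 4 backgrounds, intact, lacking Suv39h1/2, lacking G9a and lacking both. For Dnmt3l the direction differed between backgrounds. It was higher without Setdb1 in intact cells, as given above, and in cells lacking Suv39h1/2, with 212 and 186 TPM in Suv39-Setdb1 TKO against 93.4 and 93.9 TPM in Suv39 DKO libraries (1.08 ± 0.12, SE, adjusted p = 1.39e-05). In cells lacking G9a the groups overlapped and it did not pass, with 128 and 150.1 TPM in G9a-Setdb1 DKO against 145 and 137 TPM in G9a-KO libraries (-0.02 ± 0.12, SE, adjusted p = 0.917). In cells lacking both it was lower, with 176 and 135 TPM in QKO against 296 and 276 TPM in G9a-Suv39 TKO libraries, and fell by 0.88 ± 0.12 on the log2 scale (SE; adjusted p = 6.09e-05). Members passed in 2 of 8 cases in the Suv39h1/2 background, where 27.2% of all genes passed, in 1 of 8 in the G9a background (25.9%) and in 4 of 8 in the background lacking both (41.8%).

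Dnmt3b was lower in QKO than in G9a-Suv39 TKO, with a log2 difference of -0.84 ± 0.13 (SE; adjusted p = 0.000149), and in G9a-Setdb1 DKO than in G9a-KO, with -0.52 ± 0.13 (SE; adjusted p = 0.00915). The second of these was lost without G9a-KO replicate 2 or G9a-Setdb1 DKO replicate 1 (-0.68 to -0.36, adjusted p up to 0.103). Dnmt3a was lower in QKO than in G9a-Suv39 TKO (-0.54 ± 0.13, SE, adjusted p = 0.00539), and it did not pass in the other backgrounds.

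Whether the effect of Setdb1 loss differed between backgrounds was tested as an interaction in limma, the difference in the mutant background minus that in intact cells. In the background lacking G9a and Suv39h1/2 the interaction was -2.25 ± 0.18 (SE; adjusted p = 1.6e-06) for Dnmt3l, -0.85 ± 0.19 (SE; adjusted p = 0.00734) for Dnmt3b and -0.84 ± 0.19 (SE; adjusted p = 0.0091) for Dnmt3a. Those were 3 of 8 members, against 13.2% of all genes. In the background lacking G9a alone, Dnmt3l passed at -1.39 ± 0.18 (SE; adjusted p = 0.000165), 1 of 8 members against 10.1% of all genes. All 4 interactions passed with any 1 of the 8 libraries left out. In the Suv39h1/2 background no member passed in limma, none had an unadjusted p under 0.05, and 0.195% of all genes passed; the Dnmt3l value was -0.29 ± 0.18 (SE; adjusted p = 0.88).

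**Figure D2:**
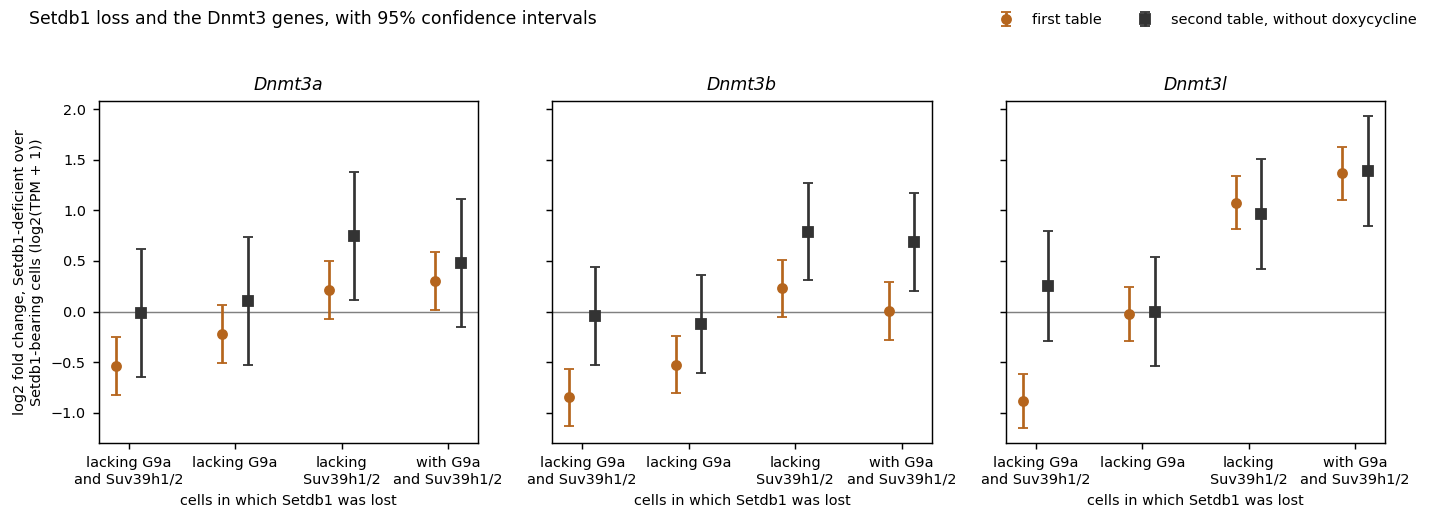
Log2 difference of Dnmt3a, Dnmt3b and Dnmt3l on loss of Setdb1 (vertical axis, log2(TPM + 1) scale, 0 meaning no difference) in 4 backgrounds, for the first table and for the second table without doxycycline. Points are limma estimates and bars 95% confidence intervals; in the first table Dnmt3l was at 1.36 in intact cells and at -0.88 in cells lacking G9a and Suv39h1/2.

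Cells lacking G9a and another enzyme were also compared with cells that had G9a and lacked the same other enzyme or enzymes. These groups come from different cell lines, so line and loss of G9a cannot be told apart. Relative to Suv39 DKO, G9a-Suv39 TKO cells had higher Dnmt3l (1.60 ± 0.12 (SE; adjusted p = 2.35e-07)), Dnmt3b (1.28 ± 0.13 (SE; adjusted p = 4.55e-06)) and Dnmt3a (0.89 ± 0.13 (SE; adjusted p = 0.000178)), 3 of 8 members where 25.8% of all genes passed. Relative to Setdb1-KO, G9a-Setdb1 DKO cells had higher Dnmt3b (0.45 ± 0.13 (SE; adjusted p = 0.0163)) and Tet3 (0.64 ± 0.18 (SE; adjusted p = 0.0151)), 2 of 8 against 32.8%. Both calls were lost without Setdb1-KO replicate 1 or G9a-Setdb1 DKO replicate 2, with adjusted p up to 0.19 for Dnmt3b (0.27 to 0.63) and 0.207 for Tet3 (0.35 to 0.94). Relative to Suv39-Setdb1 TKO, QKO cells had lower Dnmt3l (-0.36 ± 0.12 (SE; adjusted p = 0.0381)), the 1 member of 8 that passed against 32.5%. That call was lost without Suv39-Setdb1 TKO replicate 1 or QKO replicate 2 (-0.55 to -0.17, adjusted p up to 0.384).

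Loss of Suv39h1/2 in cells lacking another enzyme was likewise compared between different cell lines, so line and genotype cannot be told apart. Over 3 comparisons, 1 member passed. Dnmt3l had 296 and 276 TPM in G9a-Suv39 TKO against 145 and 137 TPM in G9a-KO libraries, with no overlap, and was higher by 1.01 ± 0.12 (SE; adjusted p = 0.000116); 11% of all genes passed there. No member passed in Suv39-Setdb1 TKO against Setdb1-KO, where 0.519% of all genes passed, or in QKO against G9a-Setdb1 DKO (21%). In limma 1 member had an unadjusted p under 0.05 in each, Dnmt3a and Uhrf1, both lower.

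Dux, the transcription factor that switches on genes of the 2-cell embryo, was lacking as well in 1 group, Dux-KO QKO. The titles of that group carry another line name than those of QKO, so line and loss of Dux cannot be told apart. Dnmt3l had 263 and 248 TPM in Dux-KO QKO against 176 and 135 TPM in QKO libraries. Dnmt3b had 135 and 142 TPM in Dux-KO QKO against 90.8 and 77.5 TPM in QKO libraries. Neither gene's groups overlapped. The differences were 0.72 ± 0.12 (SE; adjusted p = 0.000423) for Dnmt3l and 0.72 ± 0.13 (SE; adjusted p = 0.000677) for Dnmt3b, beside a median of 0.22 over all genes. Dnmt3a (0.39 ± 0.13 (SE; adjusted p = 0.0324)) and Tet3 (0.48 ± 0.18 (SE; adjusted p = 0.0499)) passed too, 4 of 8 members against 41.5% of all genes. Dnmt3a and Tet3 lost their calls without any 1 of the 4 libraries (adjusted p up to 0.164 and 0.236) and after median-ratio scaling, where Dnmt3a was at 0.18 (adjusted p = 0.11) and Tet3 at 0.31 (adjusted p = 0.102). Markers of 2-cell-like cells summed to 343 and 336 TPM in Dux-KO QKO against 10615 and 10381 TPM in QKO libraries, with 26 of 30 tested markers lower. Primitive endoderm markers summed to 2800.3 and 2673 TPM against 1249 and 948 TPM, with 20 of 21 higher. The part of these cell states in the differences was not tested.

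The maintenance pair fell in several mutants. Dnmt1, the maintenance methyltransferase, had 112 and 95.7 TPM in QKO, 104 and 127 TPM in G9a-Setdb1 DKO, 115 and 96.8 TPM in Suv39-Setdb1 TKO, 86.4 and 121 TPM in Setdb1-KO and 145 and 154 TPM in control libraries. The remaining mutants had 127 and 118 TPM in G9a-Suv39 TKO, 125 and 133 TPM in G9a-KO and 117 and 125 TPM in Suv39 DKO libraries. Every mutant library lay below both control libraries. The 4 groups without Setdb1 passed: -0.55 ± 0.15 (SE; adjusted p = 0.0106) in Setdb1-KO, -0.53 ± 0.15 (SE; adjusted p = 0.00718) in QKO, -0.50 ± 0.15 (SE; adjusted p = 0.0177) in Suv39-Setdb1 TKO and -0.38 ± 0.15 (SE; adjusted p = 0.0471) in G9a-Setdb1 DKO. None of these calls held throughout. Setdb1-KO lost it without control replicate 2 or Setdb1-KO replicate 1 (-0.78 to -0.31, adjusted p up to 0.16), and QKO without QKO replicate 2 (-0.64 to -0.42, 0.0766). Suv39-Setdb1 TKO lost it without either control or its own replicate 2 (-0.62 to -0.38, 0.171). G9a-Setdb1 DKO lost it without either control or its own replicate 1 (-0.52 to -0.23, 0.294). Compared within the mutant backgrounds, Dnmt1 differed on loss of Setdb1 by -0.24 to -0.16. It passed there in 0 of 3 comparisons (lowest limma adjusted p = 0.196).

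Uhrf1, which recruits DNMT1 to newly replicated DNA, had 180.0 and 161 TPM in QKO, 199.5 and 188 TPM in Suv39-Setdb1 TKO, 162 and 218 TPM in Setdb1-KO and 249 and 276 TPM in control libraries. All 6 mutant libraries lay below the controls. Uhrf1 was lower in QKO, at -0.62 ± 0.14 (SE; adjusted p = 0.00142), and this call was kept with any 1 library left out. It was also lower in Setdb1-KO (-0.48 ± 0.14 (SE; adjusted p = 0.0145)), lost without control replicate 2 or Setdb1-KO replicate 1 (-0.69 to -0.27, adjusted p up to 0.2), and in Suv39-Setdb1 TKO (-0.44 ± 0.14 (SE; adjusted p = 0.0239)), lost without any 1 of the 4 libraries (-0.51 to -0.36, up to 0.155). Uhrf1 was lower in QKO than in G9a-Suv39 TKO as well (-0.53 ± 0.14 (SE; adjusted p = 0.00655)), with 180.0 and 161 TPM in QKO against 242 and 248 TPM in G9a-Suv39 TKO libraries; that call was lost without QKO replicate 2 (-0.61 to -0.44, up to 0.0627). In Dux-KO QKO it stood at 167 and 169 TPM, overlapping QKO.

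The Tet genes gave few calls. Tet1, the main TET enzyme of ES cells together with Tet2, had 44.5 and 80.6 TPM in Setdb1-KO against 102 and 97.3 TPM in control libraries and did not pass in any comparison of either table in the fit of all groups without a replicate block; its difference there was -0.72 ± 0.29 (SE; adjusted p = 0.0647). Other fits gave more calls: with only the groups compared, Tet1 was lower in Suv39-Setdb1 TKO against control (-0.54, adjusted p = 0.00792). With a replicate block Tet1 passed in Setdb1-KO (adjusted p = 0.0208), and Tet2 in G9a-KO (-0.56, adjusted p = 0.00922), Suv39-Setdb1 TKO (-0.45, adjusted p = 0.0319) and QKO (-0.52, adjusted p = 0.00917), all lower than control. Between mutants, Tet1 was higher in QKO than in Suv39-Setdb1 TKO with only the groups compared (0.52, adjusted p = 0.0128). With the block Tet1 was higher in G9a-Setdb1 DKO than in Setdb1-KO (0.64, adjusted p = 0.0369). Tet2 was then lower in QKO than in G9a-Suv39 TKO (-0.41, adjusted p = 0.039). The block also called a Tet2 interaction of Setdb1 loss with the G9a background, at 0.71 (adjusted p = 0.0418). Tet2 had 26.5 and 41.3 TPM in G9a-Setdb1 DKO, 23.4 and 37.6 TPM in Setdb1-KO and 47.6 and 57.1 TPM in control libraries, with no overlap. It passed in both, at -0.64 ± 0.25 (SE; adjusted p = 0.0446) in G9a-Setdb1 DKO and -0.79 ± 0.25 (SE; adjusted p = 0.0232) in Setdb1-KO. Setdb1-KO lost the call without control replicate 2 or Setdb1-KO replicate 1 (-1.12 to -0.46, adjusted p up to 0.26), and G9a-Setdb1 DKO without either control or its own replicate 1 (-0.95 to -0.33, up to 0.356). Tet3, the form dominant in oocytes and zygotes and low here, had 1.45 and 2.69 TPM in Setdb1-KO against 3.60 and 3.70 TPM in control libraries and was lower, at -0.63 ± 0.18 (SE; adjusted p = 0.0171). That call was lost without either control or Setdb1-KO replicate 1 (-0.93 to -0.34, up to 0.236). Tet3 was also lower in Suv39-Setdb1 TKO than in Suv39 DKO (-0.52 ± 0.18 (SE; adjusted p = 0.0497)), with 2.81 and 2.35 TPM in Suv39-Setdb1 TKO against 3.71 and 4.58 TPM in Suv39 DKO libraries, and lost the call without any 1 of the 4 (-0.64 to -0.40, up to 0.292).

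Within groups of the second table, levels of members of long and of shorter transcripts alike went with a property of the library. The longest annotated transcripts of Tet1, Tet2 and Tet3 have 14369, 9179 and 10904 bases, and that of Dnmt3l has 1822. A long-transcript index was taken for each library, the median deviation of genes whose longest transcript has 6000 bases or more minus that of genes under 2000 bases, on the log2 scale. It ran from -0.49 (Setdb1-KO replicate 1) to 0.31 in the first table and from -0.45 to 0.30 in the second. The replicate with the higher index in the second table also had the higher Tet1, Tet2 and Tet3 in 15 of 16 groups each, and likewise Dnmt3a in 15, Dnmt3b and Dnmt1 in 14 each, Uhrf1 in 13 and Dnmt3l in 12. Replicate 2 had the higher index in every group of the second table but G9a-KO without doxycycline, so index and replicate number cannot be told apart there. In the first table index and level agreed in 8 of 9 groups for Tet1 and Tet2, and in 7 for Tet3, Dnmt3a, Dnmt1 and Uhrf1. Dnmt3b agreed in 6 and Dnmt3l in 5. The same was not counted over all genes. Replicate 1 of Setdb1-KO had both the lowest index of the first table and the lowest Dnmt1, Tet1, Tet2 and Tet3. With the index as a covariate, an alternative chosen after its spread was seen, all 55 member calls of both tables were kept and 36 more were made.

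**Figure D3:**
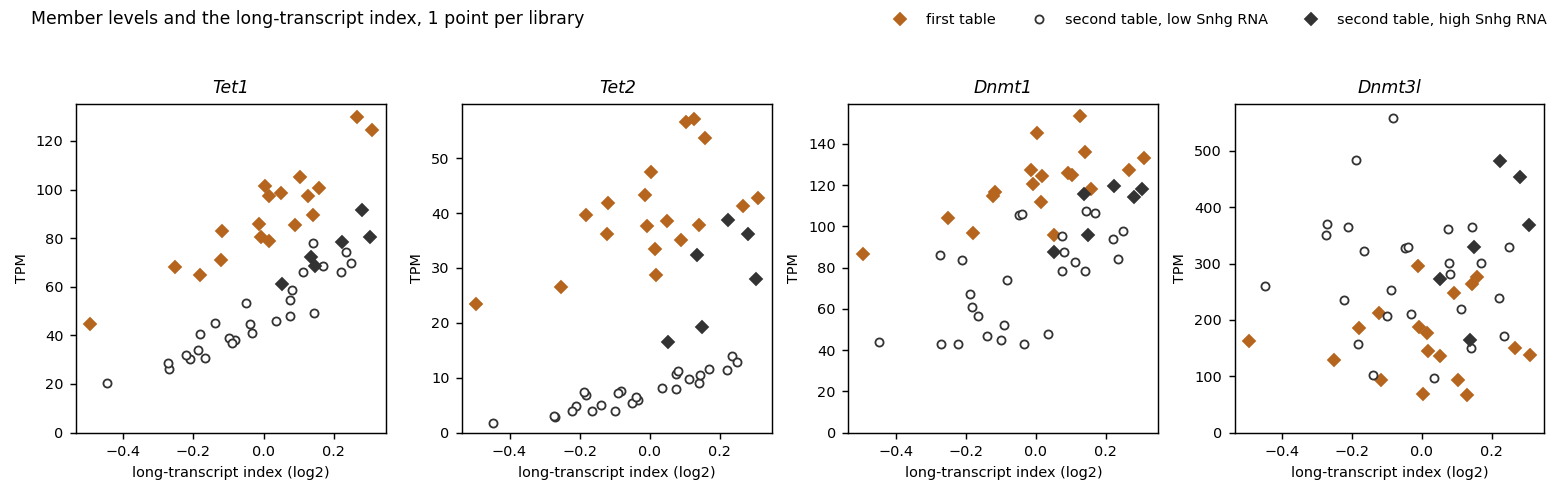
Level of Tet1, Tet2, Dnmt1 and Dnmt3l (vertical axes, TPM) against the long-transcript index of each library (horizontal axis, log2 units), one point per library, coloured by table. Tet1 and Tet2 tended to be higher where the index was higher, with Setdb1-KO replicate 1 at the far left (-0.49) among the first table's points; Dnmt3l showed no visible slope.

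The second table gave the same H3K9 methyltransferase genotypes in Tet-on-Dux lines, whose genotype field also lists Dux-KO. Groups without doxycycline were compared with their own 2 control libraries. All but Setdb1-KO again come from another cell line than control. Dnmt3b was higher in all 4 genotypes lacking G9a. Dnmt3a was higher in 3 of the 4 lacking Suv39h1/2, and Dnmt3l in 4 of 7 genotypes. Dnmt1, Uhrf1 and the Tet genes passed in none. By genotype, 3 of 8 members passed in QKO (34.3% of 13817 genes), 2 in G9a-Suv39 TKO (19.4%), 2 in G9a-Setdb1 DKO (33.1%), 1 in Suv39-Setdb1 TKO (12.3%), 2 in G9a-KO (22.9%) and 1 in Setdb1-KO (6.27%). In Suv39 DKO none passed (6.59%), and 1, Dnmt3l, had an unadjusted limma p under 0.05.

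Without doxycycline Dnmt3b had 125 and 149 TPM in QKO, 131 and 152 TPM in G9a-Suv39 TKO, 110.3 and 135 TPM in G9a-Setdb1 DKO and 132 and 134 TPM in G9a-KO libraries. With G9a present it had 59.6 and 75.6 TPM in Suv39-Setdb1 TKO, 28.9 and 50.9 TPM in Suv39 DKO, 74.8 and 94.6 TPM in Setdb1-KO and 47.4 and 56.5 TPM in control libraries. Counting both doxycycline states, the 16 libraries lacking G9a had 105 to 152 TPM (median 133) and the 16 with G9a 28.9 to 94.6 TPM (median 57.7), so these did not overlap. The differences from control were 1.43 ± 0.23 (SE; adjusted p = 0.000175) in G9a-Suv39 TKO, 1.38 ± 0.23 (SE; adjusted p = 0.000104) in QKO, 1.34 ± 0.23 (SE; adjusted p = 0.000304) in G9a-KO and 1.22 ± 0.23 (SE; adjusted p = 0.00038) in G9a-Setdb1 DKO. All 4 calls were kept with any 1 library left out. Without the high-Snhg libraries G9a-Setdb1 DKO was at 0.95, with 1 library left in it and 1 in control, so whether the call held cannot be judged. Of 22 tested primitive endoderm markers 11 were higher and 0 lower in G9a-KO, where 8.87% of all genes were higher and 14.1% lower, and 3 were higher and 10 lower in QKO (15% and 19.3%). Their part in the Dnmt3b differences was not tested.

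Dnmt3a had 57.9 and 75 TPM in QKO, 60.5 and 73.3 TPM in G9a-Suv39 TKO, 42.9 and 68.4 TPM in Suv39-Setdb1 TKO and 21.7 and 46.8 TPM in Suv39 DKO libraries. With Suv39h1/2 present it had 18.7 and 20.7 TPM in G9a-Setdb1 DKO, 20.7 and 16 TPM in G9a-KO, 26 and 33.8 TPM in Setdb1-KO and 21.8 and 20.1 TPM in control libraries. Over both doxycycline states the 16 libraries lacking Suv39h1/2 had a median of 55.0 TPM (21.7 to 75.0) and the 16 with it a median of 20.4 TPM (14.2 to 33.8). In the first table the same split gave medians of 69.7 TPM without Suv39h1/2 and 78.8 TPM with it, so the pattern was not seen there. That split left Dux-KO QKO (95.5 and 96.7 TPM) aside. The differences from control were 1.62 ± 0.30 (SE; adjusted p = 0.00068) in G9a-Suv39 TKO, 1.61 ± 0.30 (SE; adjusted p = 0.000348) in QKO and 1.33 ± 0.30 (SE; adjusted p = 0.00622) in Suv39-Setdb1 TKO. The last was lost without Suv39-Setdb1 TKO replicate 2 (adjusted p = 0.104).

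Dnmt3l had 322 and 365 TPM in QKO, 252 and 329 TPM in G9a-Suv39 TKO, 365 and 368 TPM in G9a-Setdb1 DKO and 210.4 and 302 TPM in Suv39-Setdb1 TKO libraries. It had 361 and 371 TPM in G9a-KO, 97 and 171 TPM in Suv39 DKO, 558 and 483 TPM in Setdb1-KO and 163 and 239 TPM in control libraries. Setdb1-KO was highest, and the 2 control libraries were far apart. The differences from control were 1.39 ± 0.26 (SE; adjusted p = 0.00204) in Setdb1-KO, 0.88 ± 0.26 (SE; adjusted p = 0.0182) in G9a-KO, 0.88 ± 0.26 (SE; adjusted p = 0.0123) in G9a-Setdb1 DKO and 0.79 ± 0.26 (SE; adjusted p = 0.0232) in QKO. With control replicate 1 left out, the last 3 no longer passed. G9a-KO also lost the call without either of its own libraries (0.61 to 1.16, adjusted p up to 0.225), QKO without either of its own (0.52 to 1.06, up to 0.256) and G9a-Setdb1 DKO without its own replicate 2 (0.61 to 1.16, up to 0.161). Without the high-Snhg libraries Setdb1-KO was at 1.22. That left 1 library of control and 1 each of Setdb1-KO and G9a-Setdb1 DKO, so whether the calls held cannot be judged.

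Setdb1 loss in mutant backgrounds gave 1 call in this table. Dnmt3l was higher in Suv39-Setdb1 TKO than in Suv39 DKO (0.96 ± 0.26 (SE; adjusted p = 0.0392)), 1 of 8 members against 4% of all genes, and the call was lost without Suv39 DKO replicate 1 or Suv39-Setdb1 TKO replicate 2 (0.56 to 1.37, adjusted p up to 0.598) and without the high-Snhg libraries (adjusted p = 0.0533). No member passed in G9a-Setdb1 DKO against G9a-KO (12%) or in QKO against G9a-Suv39 TKO (8.56%), and none had an unadjusted limma p under 0.05. Dnmt3l was at 0.00 ± 0.26 (SE) in G9a-Setdb1 DKO against G9a-KO and 0.25 ± 0.26 (SE; adjusted p = 0.732) in QKO against G9a-Suv39 TKO. The 3 interactions of Setdb1 loss with background were computed in this table after the first table's values were seen. For Dnmt3l the interaction was -1.39 ± 0.37 (SE; adjusted p = 0.106) in the G9a background and -1.14 ± 0.37 (SE; adjusted p = 0.364) in the background lacking both, neither passing. Among all genes 0.709% and 0.507% passed there, and 0% in the Suv39h1/2 background. At an unadjusted p under 0.05, 2 members (Dnmt3b and Dnmt3l, lower) were called in each of the G9a backgrounds and 0 in the Suv39h1/2 background.

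**Figure D4:**
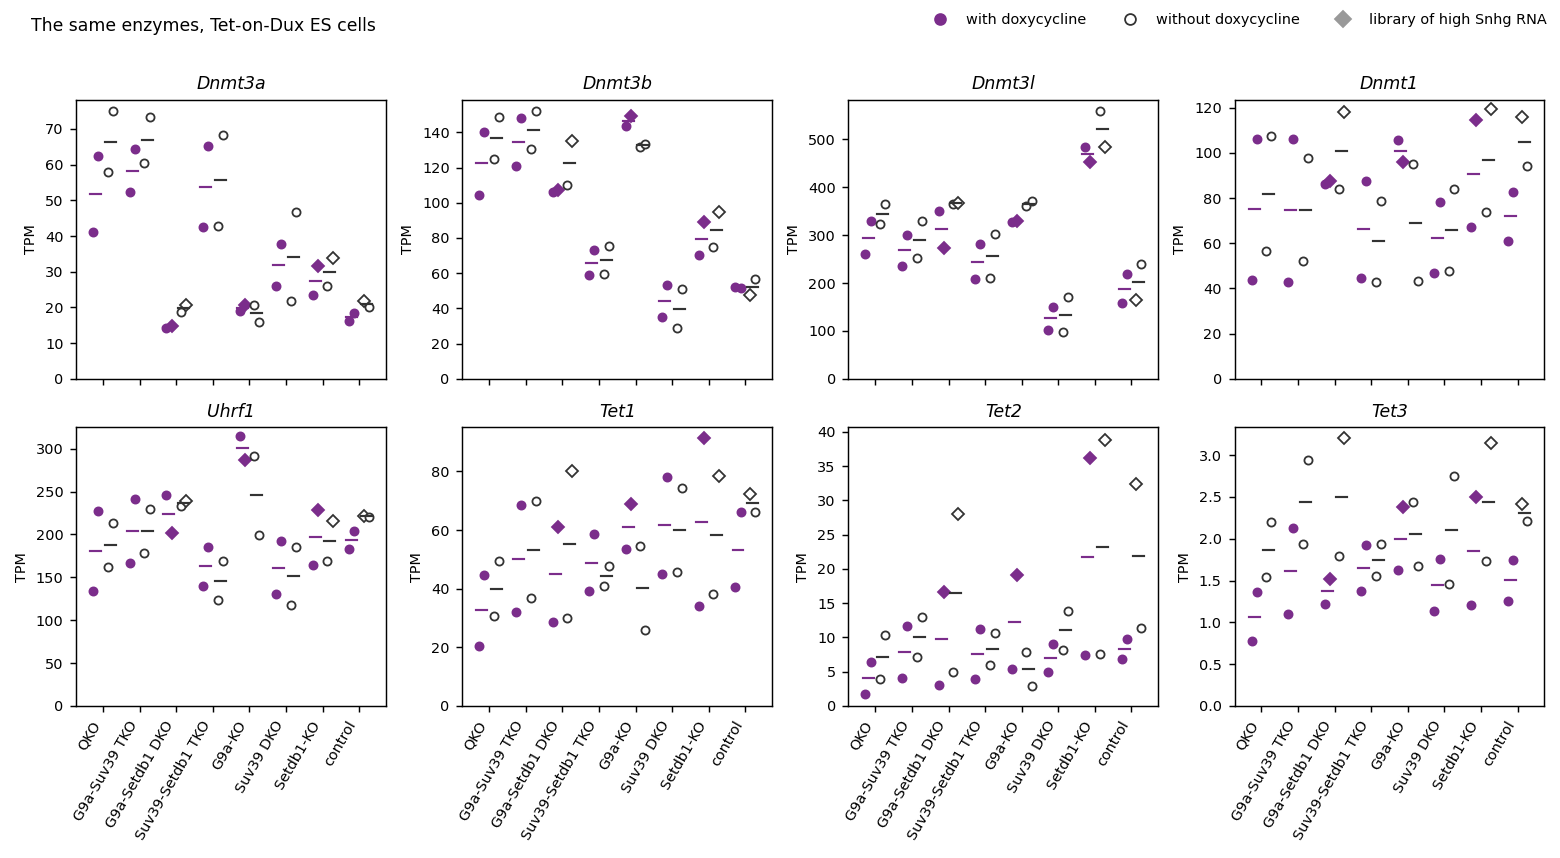
Levels of the 8 genes in the second table, in TPM on a linear axis that starts at 0, by genotype, with filled purple points (with doxycycline) to the left of open points (without). Diamonds mark the 6 high-Snhg libraries and bars the means of 2 libraries; all Dnmt3b values lacking G9a (105 to 152 TPM) lie above all those with G9a (28.9 to 94.6 TPM), and Tet2 is highest in the diamonds.

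The calls of the 2 tables were set side by side for the 56 pairs of member and genotype against control. The tables have no library in common and were normalized separately, so values were compared within a table only. Lines of the second table also carry the Dux transgene and are listed as Dux-KO, so a pair is not a repeat of the same cells. Of these pairs, 21 passed in the first table and 11 in the second. The 8 that passed in both, 38.1% of the first table's calls and 72.7% of the second's, all had the same sign. They were Dnmt3l in QKO, G9a-Setdb1 DKO, G9a-KO and Setdb1-KO, Dnmt3b in G9a-Suv39 TKO, G9a-Setdb1 DKO and G9a-KO, and Dnmt3a in G9a-Suv39 TKO. The 3 pairs that passed in the second table alone were Dnmt3a and Dnmt3b in QKO, both of which passed in the first table too with median-ratio scaling, and Dnmt3a in Suv39-Setdb1 TKO, the last at -0.03 in the first table. No call of Dnmt1, Uhrf1, Tet2 or Tet3 in the first table passed in the second. At the stricter rule of a passed test and a log2 difference of at least 1, members made up 11 of 136 tests in the first table (8.09%, with 9 of the 11 from Dnmt3l), against 6.73% of all genes, and 8 of 144 in the second (5.56%), against 3.51%.

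Induction of Dux with doxycycline gave no call of a member in the 8 lines when replicate numbers were not used. In limma 0 of 64 tests passed, and 0 had an unadjusted p under 0.05. Same-numbered libraries of a line deviated together in 8 of 8 lines (r from 0.18 to 0.75), and with the replicate number as a replicate block within line, a fit chosen after seeing this, 2 members passed in limma in G9a-Setdb1 DKO: Dnmt3a was lower with doxycycline (-0.42, adjusted p = 0.0388) and so was Tet3 (-0.53, adjusted p = 0.0466). In the other 7 lines that fit gave 0. Among all genes the share that passed without the block was 0.992% in QKO, 0.565% in G9a-Suv39 TKO, 3.59% in G9a-Setdb1 DKO, 0.246% in Suv39-Setdb1 TKO, 1.11% in G9a-KO, 0.644% in Suv39 DKO, 0.166% in Setdb1-KO and 0.203% in control. The transgene and its response were visible: the TetOnDux transcript had 25.4 and 42 TPM with doxycycline against 1.48 and 2.65 TPM without in QKO, and the summed 2-cell-like markers had 7779.6 and 8739.7 TPM with against 741 and 681 TPM without. In control cells 11 of 30 tested 2-cell-like markers rose with doxycycline, led by Zscan4a at 38.4 ± 6.36 TPM with against 0.594 ± 0.0859 TPM without (SD, n = 2 each).

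Dnmt3l illustrates the size of what was seen. It had 261 and 329 TPM with doxycycline against 322 and 365 TPM without in QKO cells, 484 and 454 TPM with against 558 and 483 TPM without in Setdb1-KO cells, and 158 and 219 TPM with against 163 and 239 TPM without in control cells. The libraries with and without doxycycline overlapped in each of these 3 lines. They did not overlap in G9a-KO cells, with 327 and 329 TPM with against 361 and 371 TPM without, or in G9a-Setdb1 DKO cells, with 351 and 273 TPM with against 365 and 368 TPM without, where all libraries with doxycycline were lower. Over the 8 lines the Dnmt3l difference ran from -0.24 to -0.06, negative in 8 of 8, and its 95% intervals stayed between -0.78 and 0.49. Tet3 was also negative in 8 of 8, from -0.53 to -0.03 with intervals from -1.15 to 0.59. In the same comparisons all genes had medians of -0.21 in QKO, -0.13 in G9a-Suv39 TKO, -0.22 in G9a-Setdb1 DKO and -0.01 in Suv39-Setdb1 TKO. The medians were -5.24e-05 in G9a-KO, -0.05 in Suv39 DKO, -0.05 in Setdb1-KO and -0.15 in control cells. Dnmt3b ran from -0.19 to 0.17 (intervals -0.68 to 0.65) and Dnmt3a from -0.42 to 0.11 (-1.05 to 0.75). Intervals were far wider for Tet2, -3.13 to 2.92, and Dnmt1, -1.64 to 1.73, and both span more than 2-fold in either direction. Interactions of doxycycline with loss of Setdb1 gave 0 of 8 members in each of 4 pairs of lines, with 0 at an unadjusted limma p under 0.05, and 0% of all genes.

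Tet2 varied most within groups. Across the second table it spanned 1.69 to 38.8 TPM, 22.9-fold. The 6 high-Snhg libraries had 16.6 to 38.8 TPM (median 30.2) and the other 26 had 1.69 to 13.9 TPM (median 7.28), with no overlap. In control cells without doxycycline the replicates had 32.3 and 11.4 TPM, and in G9a-Setdb1 DKO cells without doxycycline 4.89 and 28 TPM, the high-Snhg library being higher each time. Dnmt3b did not divide this way, at 47.4 to 149.5 TPM in the 6 and 28.9 to 152 TPM in the 26. Leaving out the 6 keeps only 1 library of control without doxycycline, so comparisons with control lose replication too. With those 6 libraries left out, 6 of the 12 member calls of the second table were kept.

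Genes that work with these enzymes were read from lists in QKO against control of the first table, where 25.3% of all genes were higher and 28% lower. Of 20 tested partners of maintenance methylation, 6 were higher and 4 lower. Dppa3, which in mouse keeps UHRF1 away from chromatin, averaged 27.1 ± 2.80 TPM in QKO against 4.71 ± 0.997 TPM in control (SD, n = 2 each; log2 difference 2.31, adjusted p = 4.79e-08). Uhrf2, a relative of Uhrf1, averaged 47.3 against 25.6 TPM (0.86) and Nlrp14 4.85 against 0.374 TPM (2.09), while Trim28, the corepressor that recruits SETDB1, averaged 837 against 892 TPM and did not pass. Of 26 genes that remove or repair oxidised methylcytosine, 5 were higher, led by Gadd45g at 17.9 against 1.74 TPM and Apobec1 at 9.68 against 4.53 TPM, and 8 were lower, among them Apex1, an endonuclease of base excision repair, at 267 against 564 TPM. Ddb1, at 407 against 419.8 TPM, did not pass. Of 13 methylcytosine readers 2 were higher, Mbd5 (6.14 against 2.44 TPM) and Mbd1 (21.6 against 12.2 TPM), and 3 lower, Mbd3 of the NuRD complex among them (103 against 177 TPM); Klf4 (133 against 153.5 TPM) did not pass.

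Of 24 genes of the methionine and one-carbon cycle, which supplies the methyl donor, 5 were higher and 10 lower. The mitochondrial folate enzymes Mthfd2, at 41.5 against 166 TPM in QKO and control, Mthfd1l, at 17.5 against 61.4 TPM, and Shmt2, at 98.1 against 332 TPM, were lower, and Tdh, threonine dehydrogenase, did not pass. Of 27 pluripotency regulators 7 were higher, with Tcl1 at 82.2 against 31.8 TPM and Tbx3 at 89.8 against 41.9 TPM, and 6 lower; Pou5f1 did not pass. Germline genes known to be silenced by promoter methylation were higher in 26 of 30 cases and lower in 0, with Asz1 at 17.5 against 0.0876 TPM, Stk31 at 112 against 7.10 TPM and Rpl10l at 286 against 25.8 TPM, while Piwil2 did not pass. Their median log2 difference was 1.91, beside -0.05 over all genes. The same list had 28 of 30 higher in Setdb1-KO against control, where 12.5% of all genes were higher and 21.6% lower. It had 13 higher and 5 lower in G9a-KO (16.9% and 18.1% of all genes), and 3 higher and 2 lower in Suv39 DKO (0.981% and 1.2%), both against control. DNA methylation itself was not measured.

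Cell state markers in QKO against control were higher in 30 of 30 cases for the 2-cell-like list, in 7 of 12 for trophoblast (2 lower), in 4 of 12 for primed epiblast (4 lower), in 9 of 21 for naive pluripotency (6 lower) and in 3 of 7 for fibroblasts (1 lower). Otx2, a primed epiblast factor, averaged 80.8 ± 5.98 TPM in QKO against 5.08 ± 0.0599 TPM in control (SD, n = 2 each). Of the same list, Grhl2 was higher, at 13.2 against 0.709 TPM, and Dnd1 lower, at 3.51 against 15.6 TPM. Foxn2, at 26.8 against 23.8 TPM, did not pass. With doxycycline in the control line, 0 genes of any list but the 2-cell-like one passed.

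Members were also compared with each other and with all genes by their group means, as a description over 9 groups of the first table and 16 of the second, in which groups share lines, normalization and library type. Among members, Dnmt3a and Dnmt3b had a Pearson r of 0.88 in the first table, Tet1 and Tet3 0.80, and in the second table Tet1 and Tet2 had 0.80 and Dnmt3b and Dnmt3l 0.71. Among 13416 genes tested in both tables, those with the most similar pattern, by the lower of both correlations, were Col6a5, Arl14epl and Crmp1 for Dnmt3b (0.93 and 0.92 for Col6a5 in the first and the second table). They were Pfkp, Lrpap1 and Ctnnal1 for Dnmt3l (0.80 and 0.90 for Pfkp) and Cdc73, Fem1b and Crygd for Dnmt3a (0.82 and 0.88 for Cdc73). For Dnmt1 they were 9930104L06Rik, Map7d1 and Taok2, and for Uhrf1 Dis3, Pinx1 and Txnrd3. For Tet1 they were Aspm, Ccdc88a and Spire1, for Tet2 Arhgap17, Jmjd1c and Kif14, and for Tet3 Slc6a6, Vav2 and Dlgap4.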

How the data were processed

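RNA from mouse ES cells was sequenced as stranded mRNA libraries in paired reads of 150 nt, per the labels' protocols. The authors deposited TPM values per gene in 2 tables, each normalized on its own; the submitters' processing notes name, without roles, RSEM 1.3.1, SAMtools 1.9, STAR 2.7.10b, Bowtie2 2.3.4.1 and the build mm10. No source used here gives the gene annotation or the multi-mapping and strand settings. Depth cannot be had from TPM, so the 2 libraries per group alone set the precision.

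From the deposited TPM values, log2(TPM + 1) was computed and genes reaching 1 TPM in 2 or more libraries were kept (13862 in the first table and 13817 in the second). Each table was fitted in 1 limma-trend model (R 4.3.3, limma 3.58.1) with 9 and 16 groups, leaving 9 and 16 residual degrees of freedom. Comparisons were contrasts, with the Benjamini-Hochberg adjustment taken across every gene tested in that comparison. A gene passed below 0.05. The fit was tested on simulated data.

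The members and gene lists were chosen with earlier results of these data known. From each other list, in QKO against control and in doxycycline against none in the control line, up to 3 passed genes of largest log2 difference and the not passed gene of highest mean were named, and for each member the 3 genes of most similar pattern; 1 gene that the rule names is not reported here. Alternatives were a pseudocount of 0.1, no filter, median-ratio scaling, a replicate block, the compared groups alone, each library left out, libraries of high Snhg RNA left out, a log2 difference of at least 1 and, added after the data were seen, the long-transcript index as a covariate and a block within line.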

Additional observations from a re-analysis of the deposited data

Results flagged for a closer look

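The effect of Setdb1 loss on 3 members differed between backgrounds in the first table, by a limma interaction (difference in the mutant background minus that in intact cells, Benjamini-Hochberg adjusted over 13862 genes). Dnmt3l gave -2.25 (adjusted p = 1.6e-06) in cells lacking G9a and Suv39h1/2 and -1.39 (adjusted p = 0.000165) in cells lacking G9a. In cells lacking G9a and Suv39h1/2, Dnmt3b gave -0.85 (adjusted p = 0.00734) and Dnmt3a gave -0.84 (adjusted p = 0.0091). All Dnmt3l libraries of QKO were below those of G9a-Suv39 TKO, and all of Setdb1-KO were above those of control. Each of the 4 kept its call in 8 of 8 fits with 1 library left out, with a highest adjusted p of 0.0462, for Dnmt3a. In the second table the 2 Dnmt3l interactions had the same sign and did not pass. The lower Dnmt3l of QKO was not seen there, in lines with the Dux transgene that are listed as Dux-KO. Without doxycycline Dnmt3l had 322 and 365 TPM in QKO against 252 and 329 TPM in G9a-Suv39 TKO libraries, which overlapped. Each background is 1 cell line, so line and genotype cannot be told apart.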

How the results depend on the processing

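Of 55 member calls over all comparisons, interactions included, none reversed under any alternative. Calls kept were 53 with a pseudocount of 0.1 TPM, 47 with no filter, 53 with median-ratio scaling (16 added), 38 with the compared groups alone (4 added), 55 with the long-transcript covariate (36 added) and 6 of 12 without the high-Snhg libraries. With each library left out in turn, 31 of the 55 calls were kept throughout: 14 of 19 for Dnmt3l, 10 of 13 for Dnmt3b, 6 of 9 for Dnmt3a, 1 of 4 for Uhrf1, 0 of 4 for Dnmt1, 0 of 2 for Tet2 and 0 of 4 for Tet3. Without the high-Snhg libraries, control, Setdb1-KO and G9a-Setdb1 DKO without doxycycline each had 1 library. Calls lost there cannot be told apart from loss of replication. The cause of the changes below was not tested. Depth is unknown, and the spread between 2 libraries limits what can be called.

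Counts of members passed changed by over 1.5 times as follows, in the first table unless named otherwise. A pseudocount of 0.1 TPM gave 1 in Suv39-Setdb1 TKO against Suv39 DKO. No filter gave 2 in G9a-Setdb1 DKO against control, 1 in Suv39-Setdb1 TKO against Suv39 DKO, 0 in QKO against Suv39-Setdb1 TKO and, in the second table, 0 in Suv39-Setdb1 TKO against Suv39 DKO. Median-ratio scaling gave 1 in Suv39 DKO against control, 5 in QKO against control, 2 in Dux-KO QKO against QKO, 4 in Suv39-Setdb1 TKO against Suv39 DKO, 2 in QKO against Suv39-Setdb1 TKO, 1 each in Suv39-Setdb1 TKO against Setdb1-KO and in QKO against G9a-Setdb1 DKO, and 3 in the interaction of the G9a background; in the second table it gave 2 in Setdb1-KO against control and 2 in Suv39-Setdb1 TKO against Suv39 DKO.

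The compared groups alone gave 1 in Setdb1-KO, 5 in Suv39-Setdb1 TKO and 1 in G9a-Setdb1 DKO, each against control, and 0 in G9a-Setdb1 DKO against G9a-KO and against Setdb1-KO. For the second table they gave 0 in Setdb1-KO and in Suv39-Setdb1 TKO and 1 in G9a-KO and in G9a-Setdb1 DKO, each against control, and 0 in Suv39-Setdb1 TKO against Suv39 DKO. The long-transcript covariate gave 1 in Suv39 DKO, 5 in G9a-KO and 6 in QKO against control, 4 each in Suv39-Setdb1 TKO against Suv39 DKO and in G9a-Setdb1 DKO against Setdb1-KO, 3 each in QKO against Suv39-Setdb1 TKO and in G9a-Suv39 TKO against G9a-KO, 1 in Suv39-Setdb1 TKO against Setdb1-KO, 2 in QKO against G9a-Setdb1 DKO and 5 in the interaction of the G9a background. In the second table it gave 2 in Setdb1-KO and in Suv39-Setdb1 TKO against control, 3 in Suv39-Setdb1 TKO against Suv39 DKO and 2 in the interaction of the G9a background. Without the high-Snhg libraries, the second table gave 0 in Setdb1-KO, 1 in G9a-KO and 0 in G9a-Setdb1 DKO against control, and 0 in Suv39-Setdb1 TKO against Suv39 DKO. A log2 difference of at least 1 left 1 in Setdb1-KO, G9a-KO, Suv39-Setdb1 TKO, G9a-Setdb1 DKO and QKO against control and in Suv39-Setdb1 TKO against Suv39 DKO, and 0 in Dux-KO QKO against QKO, G9a-Setdb1 DKO against G9a-KO and against Setdb1-KO, and QKO against G9a-Suv39 TKO and against Suv39-Setdb1 TKO. Of the second table it left 1 in G9a-KO and in G9a-Setdb1 DKO against control and 0 in Suv39-Setdb1 TKO against Suv39 DKO.

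With 1 library left out, counts in the first table against control ranged from 1 to 6 in Setdb1-KO, 2 to 3 in G9a-KO and in QKO, 1 to 2 in Suv39-Setdb1 TKO and 1 to 4 in G9a-Setdb1 DKO. They were 2 to 2 in Dux-KO QKO against QKO, 1 to 1 in Suv39-Setdb1 TKO against Suv39 DKO, 0 to 2 in G9a-Setdb1 DKO against G9a-KO, 3 to 4 in QKO against G9a-Suv39 TKO, 1 to 5 in G9a-Setdb1 DKO against Setdb1-KO, 0 to 1 in QKO against Suv39-Setdb1 TKO and against G9a-Setdb1 DKO, and 1 to 3 and 3 to 4 in the interactions of the G9a and the G9a and Suv39h1/2 backgrounds. Counts in the second table ranged from 0 to 1 in Suv39 DKO and in Suv39-Setdb1 TKO, 1 to 2 in G9a-KO and in G9a-Setdb1 DKO and 2 to 3 in QKO, each against control, and from 0 to 3 in Suv39-Setdb1 TKO against Suv39 DKO. All other counts were the same in every such fit.

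Same-numbered libraries did not deviate together in all pairs of groups, so the numbers were not taken as pairs. In the first table r ran from -0.06 to 0.62 (25 of 36 over 0.1), and in the second from -0.65 to 0.75 (66 of 120). Every negative r of the first table was in a pair with Dux-KO QKO. Between its other groups r ran from 0.04 to 0.62, so same-numbered libraries did tend to deviate together there. A fit with the replicate number as a replicate block kept all 55 calls and added 15. It gave 1 in Suv39 DKO against control, 4 in G9a-Setdb1 DKO against Setdb1-KO, 1 in QKO against G9a-Setdb1 DKO and 3 in the interaction of the G9a background, and, in the second table, 2 in Setdb1-KO against control, 2 in Suv39-Setdb1 TKO against Suv39 DKO and 1 (Dnmt3l) in the interaction of the G9a background. With and without doxycycline, same-numbered libraries of a line did deviate together (r from 0.18 to 0.75 in 8 of 8 lines), as a hint from the data. A replicate block within line, chosen after seeing this, gave 2 calls for doxycycline in G9a-Setdb1 DKO, Dnmt3a lower (-0.42, adjusted p = 0.0388) and Tet3 lower (-0.53, adjusted p = 0.0466), and 0 in the other 7 lines.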
